A study of Homo sapiens with 15 samples.

Results

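HEK293FT cells, a fast-growing line derived from human embryonic kidney and carrying SV40 large T antigen, were compared by polyA RNA sequencing after CRISPR activation with the pool of guides titled trex5008 or with non-targeting guides. Every row of the deposited table was used, which made 11230 of 11230 rows. The comparison rests on 6 of 15 libraries. These are 3 titled trex5008 and 3 controls, described per the labels as biological triplicates. Each row was described by the log2 ratio of the authors' mean normalised counts, trex5008 over control, with 1 added to both means.

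The study asked which genes respond when 1 of 4 long non-coding RNAs, called TrEx because they are transiently expressed, is switched on at its own locus. In the libraries titled trex5008, plasmids for dCas9-VP64, for the fusion MS2-p65-HSF1 and for 5 guides were transfected together, the guides aimed between 50 and 450 bp before the start of 1 such RNA. Control cells received both activators as well, with 5 guides of non-targeting sequence, so both groups carry the activation machinery and went through the same transfection. Puromycin (2 ug/mL) was given after 24 hours and RNA was taken after 48 hours in both groups. The other groups, trex0108, trex4039 and trex8168, had 3 libraries each and share the control libraries with this comparison.

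The title and the target label of the trex5008 libraries name different RNAs. The titles read trex5008, whereas the target label reads TrEx8168, and the libraries titled trex8168 carry the label TrEx5008. The columns of the table are spelled like the titles, so the groups are named here by title, and which of the labels is right cannot be told here.

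CRISPR activation joins a catalytically dead Cas9 to transcription activation domains and leads them with a guide RNA to a promoter, where they recruit the cell's own transcription machinery. Guide pools raise the chance that 1 site is open and bound. Many long non-coding RNAs work, where a function is known, near their own site of transcription, while others act on distant genes, so both the neighbourhood of the targeted locus and the rest of the transcriptome are of interest.

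The table holds group means without values per library, so the means carry no SD, the depth behind them is unknown, and significance is the authors' adjusted p. Rows called higher or lower are those to which the authors' deposited table gives an adjusted p under 0.05. To be listed at all, a row needed an adjusted p under 0.1 in at least 1 of 4 comparisons, so shares among listed rows are not shares of the transcriptome. The listed means added up to 32792600 in trex5008 and 31568400 in control. Of 9 genes reported in HEK293 cells, 6 were listed, among them the neurofilament gene NEFM with a mean of 4863 in trex5008 and 5358 in control, and the cadherin gene CDH2 with 4793 in trex5008 and 4215 in control. CDH2 was called higher and PAX2, another of the 6, lower, at a deposited log2 fold change of -0.33. None of 7 blood, 4 epithelial and 4 endothelial markers was listed. Of 8 fibroblast markers 3 were listed, with the collagen gene COL3A1 at 224 in trex5008 and 284 in control. Of 6 pluripotent stem cell markers 2 were listed and 0 called. Listing depended on a difference between groups, so a marker that is not listed may still be expressed.

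The row with the largest rise was RP11-71N10.1, a lincRNA on chromosome 3, 147657714 to 147724914 (hg19). Its mean was 1285 in trex5008, 5.37 in trex0108, 4.51 in trex4039, 2.32 in trex8168 and 4.51 in control. The trex5008 mean thus stood far above every other group, whose means did not exceed 5.37. The log2 ratio over control was 7.87. The authors' deposited table gives a shrunken log2 fold change of 5.56 and lists the adjusted p as 0, and no other row has a listed adjusted p of 0 in this comparison. No column links loci to TrEx names, and the row is therefore not identified here as the targeted RNA.

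No other listed row lay within 500 kb of RP11-71N10.1. The nearest listed row at a higher coordinate was AGTR1, the angiotensin II receptor gene, 691 kb away, with means of 47.1 in trex5008 and 47.8 in control; its log2 ratio was -0.02 and its adjusted p in the authors' deposited table was 0.953. The nearest at a lower coordinate was PLSCR1, a phospholipid scramblase gene, 1395 kb away, with means of 854 in trex5008 and 797 in control and, in the authors' deposited table, adjusted p = 0.306. Neither was called. GYG1, the glycogenin gene that primes glycogen synthesis, and HLTF, a helicase-like factor of DNA damage tolerance, 984 and 1016 kb away at higher coordinates, were called higher, with log2 ratios of 0.26 and 0.26. The log2 ratios of GYG1 and HLTF stood at 0.12 and 0.03 once the relation with GC content described further on had been removed.

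Across the table, 5725 of 10589 rows with an adjusted p were called (54.1%). Of these, 3151 were higher in trex5008 (29.8%) and 2574 lower (24.3%). The other 641 rows had no adjusted p, and none of them had a mean over both groups above 23.8. Most called differences were small. The median log2 ratio was 0.24 among rows called higher and -0.30 among those called lower, and 17 and 34 rows reached a size of 1. At a size of at least 0.5, rows called lower outnumbered those called higher, with 94 higher and 428 lower. The deposited log2 fold change was smaller in size than the ratio of means in all 5725 called rows, and its sign differed in 0 of them.

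**Figure D1:**
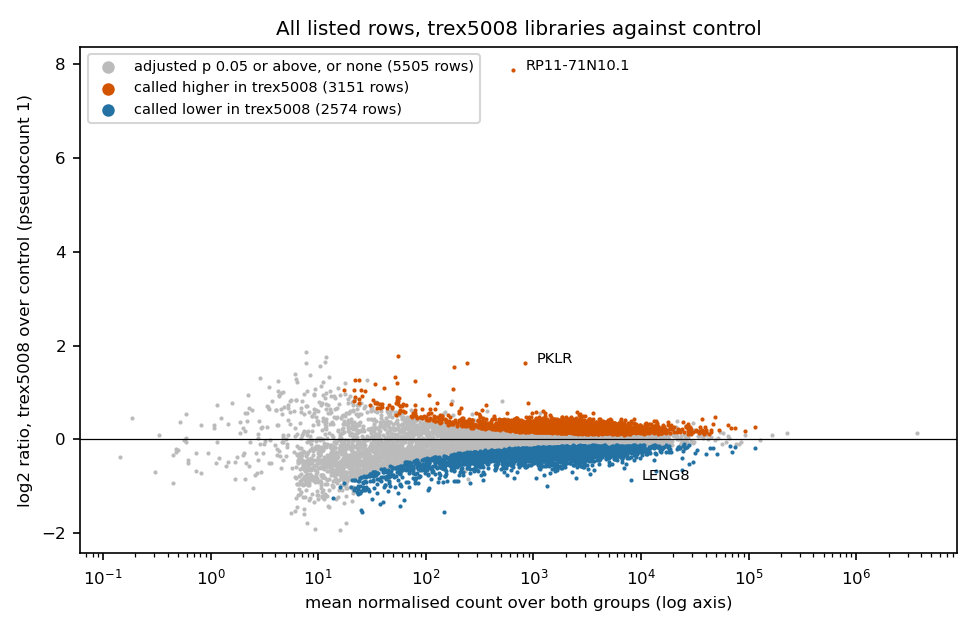
Log2 ratio of the authors' mean normalised counts, trex5008 over control (vertical axis), against the mean over both groups (horizontal log axis), for 11230 rows. Orange rows were called higher (3151), blue rows lower (2574) and grey rows were not called. RP11-71N10.1 stands alone at 7.87, and most called rows lie within 0.5 of 0.

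Direction varied with the level of expression. Among 4763 rows with means between 1000 and 5000, 1969 were called higher and 1164 lower, with a median log2 ratio of 0.12. Among 1237 rows with means between 50 and 200, 85 were higher and 282 lower, with a median of -0.19. There 22.8% were lower and 6.87% higher, against 22.9% and 28.1% over all listed rows. The median GC content of the rows that had one was 46.9% between 1000 and 5000 and 57.4% between 50 and 200. With the relation to GC content described further on removed, their median log2 ratios were 0.01 and -0.10. At the top, above 20000, 50 of 140 rows were higher and 25 lower.

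Protein-coding rows numbered 7447, of which 7249 had an adjusted p; 2348 were called higher (32.4%) and 1784 lower (24.6%). Among those with a mean of at least 50, the largest rise was that of PKLR (chromosome 1, 155253534 to 155278442), which encodes the pyruvate kinase found in liver and erythrocytes, with a mean of 1255 in trex5008, 589.6 in trex0108, 1320.1 in trex4039, 458 in trex8168 and 404 in control. Only trex4039 among the other groups came near that level. The row covers 205.1% of the annotated gene and may take in other transcripts. The log2 ratio was 1.63, and the authors' deposited table gives an adjusted p of 1.32e-07. ANKRD37, a small ankyrin repeat gene known as a hypoxia target, had a mean of 159.8 in trex5008, 97.9 in trex0108, 90.01 in trex4039, 169 in trex8168 and 93.1 in control. It was high in trex5008 and trex8168 and close to control in trex0108 and trex4039. Its adjusted p was 0.000192 in the authors' deposited table.

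KCNA1, which encodes a voltage-gated potassium channel of axons, had a mean of 215 in trex5008, 127 in trex0108, 196 in trex4039, 131 in trex8168 and 126 in control, and again trex4039 was the nearest group. POU2F1, the gene of the octamer-binding factor OCT1, reached 3059 in trex5008, 2440.2 in trex0108, 2401 in trex4039, 2151 in trex8168 and 2029 in control. Its trex5008 mean was the highest of the 5 groups. ANKRD18B, an ankyrin repeat gene whose function is not well described, stood at 1469.7 in trex5008, 969 in trex0108, 1112 in trex4039, 978 in trex8168 and 966 in control, with the other target groups all nearer to control than to trex5008. For POU2F1 and ANKRD18B the authors' deposited table gives adjusted p-values of 1.11e-08 and 0.000398. VBP1, a prefoldin subunit that passes unfolded actin and tubulin to the chaperonin, had a mean of 4247 in trex5008 and 2879 in control.

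The remaining rises of the 12 largest were smaller genes by level or less well known. ARIH2OS, TIGD7, HMGCLL1, CCDC178, LRRC2 and NAMPTL had log2 ratios from 0.54 to 0.71 and trex5008 means from 67.3 to 244. NAMPTL is a processed copy of NAMPT, and its reads may be shared with the parent gene.

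Among the falls, DDIT4, an inhibitor of mTORC1 that responds to hypoxia and stress, had a mean of 893 in trex5008, 1304 in trex0108, 570.0 in trex4039, 1116 in trex8168 and 1786 in control. Control was the highest group and trex4039 the lowest. The log2 ratio was -0.999, and the authors' deposited table gives adjusted p = 0.000209. LENG8, a gene related to the yeast mRNA export factor Sac3, had a mean of 5765 in trex5008, 9828 in trex0108, 4363 in trex4039, 6913 in trex8168 and 10499.9 in control, and HSPG2, the gene of the basement membrane proteoglycan perlecan, of 754 in trex5008, 1133 in trex0108, 633 in trex4039, 919.6 in trex8168 and 1339 in control. Both lay lowest in trex4039, next in trex5008 and highest in control. For LENG8 and HSPG2 the adjusted p-values in the authors' deposited table were 6.52e-30 and 1.01e-14.

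HES5, a transcriptional repressor switched on by NOTCH, fell to a mean of 133 in trex5008, against 246 in control. TEF, a clock-controlled transcription factor, stood at 129 in trex5008 and 238 in control, and NBEAL2, needed for platelet alpha granules, at 1785 in trex5008 and 3133 in control. UNC5A, a netrin receptor gene, had a mean of 79.9 in trex5008, 124 in trex0108, 89.8 in trex4039, 114 in trex8168 and 144 in control, so trex5008 was the lowest of the 5 groups. The scavenger receptor gene SSC5D and the zinc finger gene ZNF843 were lowest in trex5008 as well, at 39.4 and 95.5, against 76.4 and 171 in control. MEX3D, an RNA-binding protein gene, had means of 46.4 in trex5008 and 94.2 in control on this row. An overlapping row of the same name had 389 in trex5008 and 483 in control. It was also called lower, at a log2 ratio of -0.31 (-0.01 with the GC trend removed). The rows named TPPP and SLC1A5 cover 10.9% and 28.1% of the annotated gene and so describe a fragment, with log2 ratios of -0.93 and -0.87. The row of the whole SLC1A5 gene, a glutamine transporter, had means of 8299 in trex5008 and 9329 in control and a log2 ratio of -0.17 (0.03 with the GC trend removed).

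**Figure D2:**
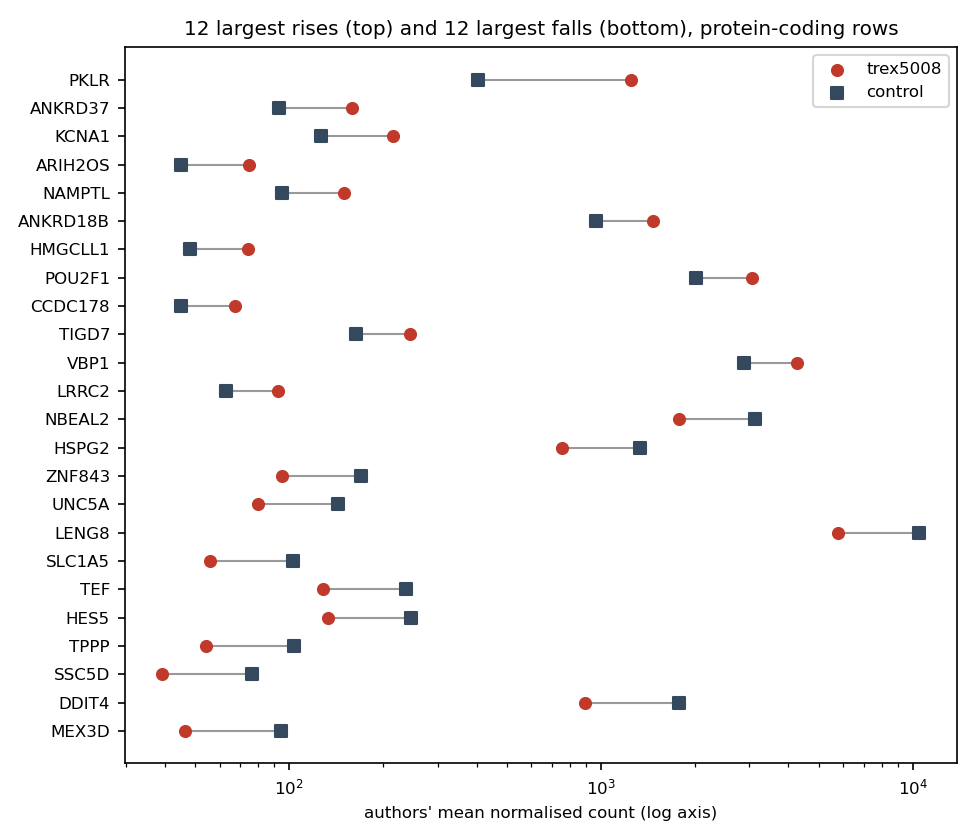
Authors' mean normalised counts in trex5008 (red circles) and control (dark squares) on a log axis, for the 12 protein-coding rows with the largest rises (top) and the 12 with the largest falls (bottom), among called rows with a mean over both groups of at least 50. PKLR shows the widest gap, 1255 against 404.

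Among rows without protein-coding type, antisense RNAs were more often lower than higher, with 27 higher and 80 lower of 362 and a median log2 ratio of -0.24. For lincRNAs the counts were 16 higher and 40 lower of 191, with a median of -0.17. Pseudogenes went the other way, with 63 higher and 36 lower of 302 and a median of 0.17. Over all listed rows, 28.1% were higher and 22.9% lower. In the same order the shares were 7.46% and 22.1% for antisense RNAs, 8.38% and 20.9% for lincRNAs, and 20.9% and 11.9% for pseudogenes. Falls of antisense RNAs and lincRNAs were thus near the share over all rows, and their rises were fewer. Pseudogenes lay below it in both directions. Reads of pseudogenes can be split with their parent genes, and whether the counting used strand was not stated in these sources, which leaves antisense rows uncertain. Rows without an annotated type numbered 2831, of which 679 were higher and 608 lower.

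Among named rows of this kind with a mean of at least 50, the largest rises after RP11-71N10.1 were RNU5E-1, KLKP1, AC010468.1 and FTH1P11. The row named for the spliceosomal RNA gene RNU5E-1 had a mean of 75.9 in trex5008 and 32.6 in control, but its span is many times that of the small RNA. KLKP1, a kallikrein pseudogene, had 244 in trex5008, 158 in trex0108, 144 in trex4039, 173 in trex8168 and 116 in control, and no other group reached the trex5008 level. FTH1P11, a ferritin heavy chain pseudogene, stood at 70.4 in trex5008 and 37.2 in control. The largest falls were RN7SL569P, the antisense RNAs CTD-3184A7.4, CTC-338M12.5 and RP5-882C2.2, and the pseudogene XXbac-B562F10.11. The row named for RN7SL569P, a signal recognition particle RNA pseudogene, had means of 39.2 in trex5008 and 79.4 in control. It covers 5858.3% of the annotated pseudogene and may take in other transcripts. The other falls named had log2 ratios from -0.93 to -0.88. CTD-3184A7.4 had a mean of 175 in trex5008, 314 in trex0108, 141 in trex4039, 246 in trex8168 and 334 in control.

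The direction of change went with the base composition of the transcripts. A GC content (the share of G and C in the annotated GENCODE transcripts) was found for 6111 protein-coding rows, or 82.1%. Over the 5670 of these with a mean of at least 50, the log2 ratio had a Spearman rank correlation of -0.79 with GC content, across genes of the same libraries. The same value was -0.42 in trex0108, -0.79 in trex4039 and -0.28 in trex8168, each against the shared control. With transcript length the correlation was -0.02 in trex5008, and with the genomic span of the row 0.29.

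When the rows were split into 10 bins of equal size by GC content, the lowest bin covered 31.9 to 39.4%. There 416 of 567 rows were called higher and 1 lower, and the median log2 ratio was 0.24. In the highest bin, 62.9 to 75.2%, 0 were called higher and 398 lower, with a median of -0.29. The sign of the median changed between the bins centred on 50.6% and 55.1% GC. When the trend with GC content was removed by a lowess fit, 517 of 3292 called protein-coding rows with a mean of at least 50 (15.7%) retained both direction and 0.5 or more of the size, 223 higher and 294 lower, and 802 (24.4%) changed sign. The part of base composition in the changes of single genes was not tested, and log2 ratios with the trend removed are given beside the gene groups.

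**Figure D3:**
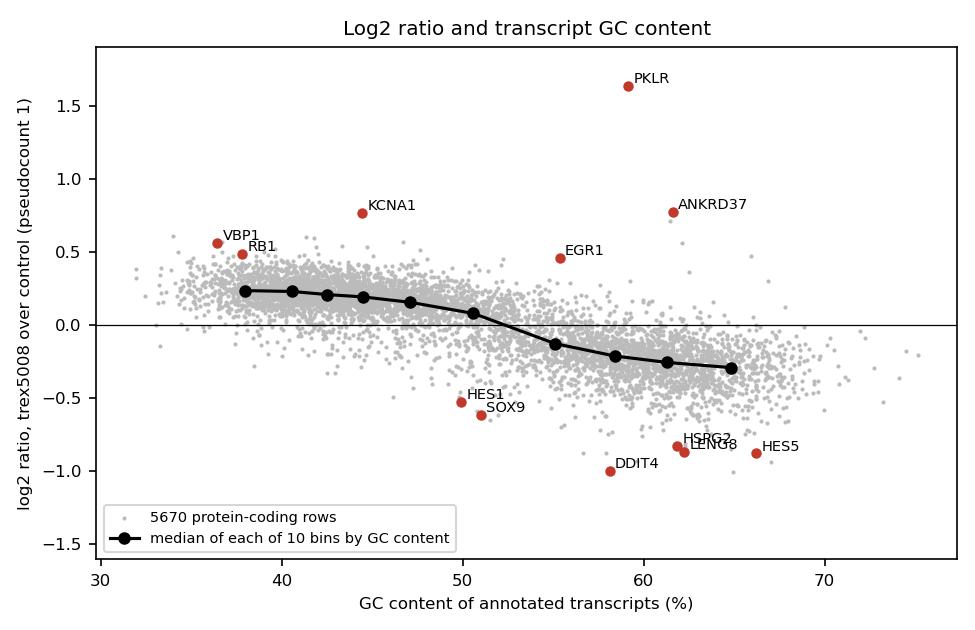
Log2 ratio, trex5008 over control (vertical axis), against the GC content of annotated transcripts in percent (horizontal axis), for 5670 protein-coding rows in grey, with the medians of 10 equal bins by GC content as a black line and named genes in red. The median declines across the bins to -0.29 at the highest GC content, against 0.24 at the lowest; PKLR at 1.63 and HES1 at -0.53 lie far from it.

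Coding sequence at either end of this range shows what the composition looks like. The last 90 bases of the coding sequence are given for 2 genes that rose, THOC1 and VBP1, and 2 that fell, LENG8 and HSPG2, from GENCODE 29 transcripts, with G and C in capitals.
THOC1: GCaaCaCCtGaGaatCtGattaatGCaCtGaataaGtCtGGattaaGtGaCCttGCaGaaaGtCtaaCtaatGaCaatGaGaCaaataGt
VBP1: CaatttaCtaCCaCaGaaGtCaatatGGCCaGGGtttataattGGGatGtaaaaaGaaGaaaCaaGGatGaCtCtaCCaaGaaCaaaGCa
LENG8: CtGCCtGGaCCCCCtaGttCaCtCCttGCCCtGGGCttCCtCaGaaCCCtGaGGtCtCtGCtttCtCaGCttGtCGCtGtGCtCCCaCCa
HSPG2: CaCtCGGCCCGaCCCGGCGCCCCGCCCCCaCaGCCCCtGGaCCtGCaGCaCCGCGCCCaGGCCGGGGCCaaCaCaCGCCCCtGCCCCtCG
The whole coding sequences held 39.8%, 42.3%, 62.5% and 64.6% GC in this order. The contrast is not uniform along the genes. The first 90 coding bases were rich in GC in all of them, from 55.6 to 74.4%, so the last 90 bases were chosen for display after both ends had been seen.

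Chromosomes differed in the same sense. On the GC-rich chromosome 19, 45 of 821 rows were higher and 389 lower, with a median transcript GC content of 61.1%. Chromosomes 16, 17 and 22 also leaned lower. On chromosome 13, 84 of 173 rows were higher and 13 lower, with a median GC content of 41.9%, and on chromosome 4 the counts were 184 and 44 of 434. With the trend removed, the median log2 ratio was 0.00 on both chromosomes 19 and 13.

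A few genes ran against this relation. Of 1226 called rows with a GC content above 55%, 16 were higher, led by PKLR, ANKRD37 and ARIH2OS, with EGR1, the mitochondrial ribosomal gene MRPL40, MAP3K9, a kinase upstream of JNK, and H3F3B, a gene of histone H3.3, among them. EGR1, an immediate early zinc finger factor, had a mean of 806 in trex5008, 1261 in trex0108, 556 in trex4039, 815 in trex8168 and 587 in control. It was above control in trex5008, trex0108 and trex8168. Of 1738 called rows with a GC content under 48%, 15 were lower, led by NPIPA1 (2181 in trex5008 and 2943 in control), a member of a recently duplicated family whose copies can share reads. POU3F2, a neural POU factor also called BRN2, and TOB1, an antiproliferative adaptor of mRNA deadenylation, were in this group with log2 ratios of -0.29 and -0.21. The splicing kinase gene CLK1 stood there too, at 2564 in trex5008 and 2936 in control.

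With the trend removed, the rows called higher that stood furthest out were PKLR, ANKRD37, ARIH2OS, EGR1 and KCNA1, from 0.58 to 1.86 on the log2 scale. Those called lower were the rows named DDIT4, TEF, MEX3D, TPPP and SLC1A5, from -0.79 to -0.67. The last 3 cover 64.1%, 10.9% and 28.1% of the annotated gene. The longer rows of MEX3D and SLC1A5 stood at -0.01 and 0.03. Over the 287 protein-coding rows that cover less than 50% of the annotated gene, the median with the trend removed was -0.36, against 0.00 for the rest. SOX9, a factor of progenitors and cartilage, BHLHE40, a clock and hypoxia-responsive repressor, and ADAMTS1, a secreted metalloprotease, stood at -0.65, -0.61 and -0.60, against -0.62, -0.61 and -0.53 before. The row named SOX9 spans many times the annotated gene and may take in other transcripts.

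Gene groups that leaned lower in trex5008 were those of signalling, matrix and neural development. Whether these leanings are particular to trex5008 was not tested. In trex4039 the log2 ratios over control were -0.63 for NOTCH3, -0.95 for LTBP4 and -0.65 for COL4A2, against -0.63, -0.64 and -0.37 in trex5008. Other members lay nearer to control in trex4039, with HES1 at -0.29 and ID1 at -0.10, against -0.53 and -0.34 in trex5008. For scale, of 7298 protein-coding symbols with 1 row each, 32.1% were higher and 24.2% lower, the median log2 ratio was 0.06 and the median GC content 48.8%. NOTCH signalling passes between neighbouring cells: a ligand on one releases the intracellular part of the receptor on the other, which joins RBPJ and co-activators of the MAML family and switches on repressors of the HES and HEY families. Of 42 genes of the pathway, 24 were listed, with 3 higher and 9 lower. Their median log2 ratio was -0.19, and -0.14 with the GC trend removed. Here and for the groups that follow, a median with the trend removed covers the members with a GC content, and a value in brackets after a log2 ratio is that ratio with the GC trend removed.

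Among the NOTCH receptors, NOTCH1 and NOTCH3 both fell. NOTCH1 had a mean of 961 in trex5008 and 1399 in control and a log2 ratio of -0.54 (-0.26), and NOTCH3 a mean of 2519 in trex5008 and 3885 in control and -0.63 (-0.34). The ligand genes DLL4 and JAG1 were not called, at -0.04 (0.20) and -0.20. Of the glycosyltransferases that tune the receptor, LFNG and RFNG were lower, at -0.49 (-0.27) and -0.29 (0.01), and the ubiquitin ligase gene MIB1, which primes the ligands, was higher at 0.22 (-0.02). The DNA-binding effector RBPJ was higher at 0.25 (0.04).

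Of 6 listed target genes, HES1, HES5 and NRARP were lower and the other 3 were not called. HES1 had a mean of 495 in trex5008, 779.5 in trex0108, 584 in trex4039, 673 in trex8168 and 714 in control. It was below control in trex5008, trex4039 and trex8168 and above it in trex0108. Its log2 ratio was -0.53 (-0.60), and the authors' deposited table gives adjusted p = 3.08e-05. HES5 had 133 in trex5008, 208 in trex0108, 107 in trex4039, 201 in trex8168 and 246 in control, lowest in trex4039 and next in trex5008, and a log2 ratio of -0.88 (-0.57). NRARP, a feedback inhibitor of the pathway, was at -0.21 (0.11), so its sign turned.

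The promoters of HES5 and HES1 are shown because both genes fell and are classical targets of RBPJ. They run from 250 bases before to 50 after the start in RefSeq (GRCh38.p14), HES5 at chr1:2530214-2530513 on the minus strand and HES1 at chr3:194135898-194136197 on the plus strand. Capitals mark GTGGGAA, the RBPJ motif, on either strand.
HES5: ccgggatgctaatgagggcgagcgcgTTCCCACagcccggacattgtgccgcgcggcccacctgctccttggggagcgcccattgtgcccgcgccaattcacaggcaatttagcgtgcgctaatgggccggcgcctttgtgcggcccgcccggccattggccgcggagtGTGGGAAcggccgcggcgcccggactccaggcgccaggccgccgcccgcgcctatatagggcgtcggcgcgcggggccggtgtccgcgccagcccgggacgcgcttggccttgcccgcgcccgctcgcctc
HES1: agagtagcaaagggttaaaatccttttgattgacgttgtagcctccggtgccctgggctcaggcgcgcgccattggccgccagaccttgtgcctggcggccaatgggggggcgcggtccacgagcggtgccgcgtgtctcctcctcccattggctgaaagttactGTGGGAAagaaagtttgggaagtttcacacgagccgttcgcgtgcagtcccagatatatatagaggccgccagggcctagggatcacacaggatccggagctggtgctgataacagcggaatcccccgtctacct
The HES5 window held 2 matches and the HES1 window 1. The motif stood in 4 of 6 listed target genes (HES1, HES5, HEY2 and HEYL), of which 2 were called lower, and in 6.25% of all 35116 promoters of the same length. A target gene was counted if any of its promoters held the motif, whereas the 6.25% counts single promoters, so these shares differ in unit. HEY2 and HEYL were not called, at -0.18 (-0.35) and -0.16 (0.07). A match describes the letters and not binding.

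In the TGF-beta and BMP pathway, secreted ligands bind serine kinase receptors that act through SMAD proteins. Of 53 genes 27 were listed, with 2 higher and 16 lower, a median of -0.25 and of -0.11 with the GC trend removed. The ligand genes TGFB1, BMP4 and BMP7 were lower, with log2 ratios of -0.25 (-0.02), -0.31 (-0.25) and -0.25 (0.01). Of 8 listed inhibitors 7 were lower, and SMAD6, an inhibitory SMAD, had the largest ratio, with means of 1209 in trex5008 and 1767 in control, -0.55 (-0.40). TGIF1, a corepressor of SMAD proteins, stood at -0.40 (-0.43). NOG and CHRD, secreted BMP antagonists, were at -0.35 (-0.11) and -0.31 (-0.01).

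The BMP-responsive genes ID1, ID2, ID3 and ID4, inhibitors of basic helix-loop-helix factors, were all lower, with log2 ratios of -0.34, -0.31, -0.39 and -0.24 and of -0.13, -0.26, -0.21 and -0.40 with the trend removed. ID3 had a mean of 2054 in trex5008 and 2696 in control. The rows named ID1, ID2, ID3 and ID4 cover 2165.5%, 634.7%, 388.0% and 8972.2% of the annotated gene and may take in other transcripts. LTBP3 and LTBP4, which store latent TGF-beta in the matrix, stood at -0.51 (-0.21) and -0.64 (-0.33). The receptor gene BMPR1B was higher, at 0.28 (0.10).

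WNT ligands signal through Frizzled receptors and LRP co-receptors to beta-catenin. Of 63 genes 26 were listed, 3 higher and 10 lower, with a median of -0.26, or -0.09 with the trend removed. The ligands WNT3A and WNT11 were lower, with means of 33.1 in trex5008 and 53.6 in control and of 377 in trex5008 and 511 in control. The Frizzled genes split: FZD3 and FZD6 were higher, at 0.22 (-0.04) and 0.28 (0.05), and FZD8 lower at -0.46 (-0.16). The beta-catenin gene CTNNB1 was not called, at 0.05 (-0.09). Of 4 listed target genes, AXIN2, a feedback inhibitor, MYC and CCND1, the cyclin D1 gene, were lower, at -0.40 (-0.22), -0.47 (-0.25) and -0.28 (-0.09).

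Extracellular matrix and basement membrane genes had 27 of 43 listed members lower and 1 higher, out of 80 genes, with a median of -0.33 and of -0.16 with the trend removed. Of 16 listed collagen genes 12 were lower and 0 higher. The basement membrane collagens COL4A1 and COL4A2 stood at -0.17 (-0.18) and -0.37 (-0.26), and the fibril-forming COL5A1 and COL18A1, the source of endostatin, at -0.43 (-0.18) and -0.42 (-0.10). Nidogens, which link laminin to collagen networks, were lower too, with NID1 at 4397 in trex5008 and 5742 in control and NID2 at 1186 in trex5008 and 1504 in control. Fibronectin (FN1) had means of 1627 in trex5008 and 2027 in control, -0.32 (-0.38), and the laminin gene LAMC3 372 in trex5008 and 546 in control.

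The proteases ADAMTS1 and ADAMTS7 stood at -0.53 (-0.60) and -0.64 (-0.33), and MMP2, which cuts basement membrane collagen, at -0.39 (-0.26). Among integrins, ITGB4, of hemidesmosomes, was lower at -0.62 (-0.34), and ITGB1, the most widely shared beta chain, was the only called rise of the group, at 0.19 (-0.03).

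Genes of neural development had 24 of 41 listed members lower and 1 higher, out of 113 genes, with medians of -0.31 and -0.14. Of 8 listed genes of radial glia and progenitors, SOX9, HES1, HES5 and NOTCH1 were lower and none was called higher; HES1, HES5 and NOTCH1 also stand among the NOTCH genes. NES, the nestin gene, had means of 1632 in trex5008 and 1857 in control and was not called. For neural crest, choroid plexus and cortical hem, 4 of 7 listed genes were lower, among them FOXD3, a neural crest factor, with means of 128 in trex5008 and 185 in control. BMP4, BMP7 and WNT3A, the others called lower, also stand among the BMP and WNT genes. Of 21 listed axon guidance genes 14 were lower and 1 higher. The plexins PLXNA1, PLXNA3, PLXNB1, PLXNB2 and PLXND1, receptors of semaphorins, were all lower, with log2 ratios from -0.53 to -0.38, and from -0.35 to -0.11 with the trend removed. The netrin gene NTN1 was lower at -0.22 (0.01) and NTN4 higher at 0.36 (0.26). The synaptic adhesion gene NLGN2 stood at 2558 in trex5008 and 3756 in control.

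Ion channel genes had 3 higher and 14 lower of 23 listed, out of 46, with medians of -0.25 and -0.08. Besides the rise of KCNA1, the potassium channel gene KCNH3 was lower at -0.55 (-0.25), the T-type calcium channel gene CACNA1G at -0.54 (-0.28), and the endosomal chloride-proton exchangers CLCN3 and CLCN5 were higher at 0.21 (0.01) and 0.27 (0.09). Homeobox, SOX and forkhead factors had 18 lower and 0 higher of 30 listed rows, with a median of -0.26, or -0.08 with the trend removed.

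Gene groups that leaned higher were those of protein folding, RNA processing, replication and protein turnover. Ribosomal genes also leaned higher, though the share of cytosolic ones called higher lay near that over all protein-coding symbols. Heat shock proteins and chaperones fold new and damaged proteins; the HSF1 factor switches many of them on, and an HSF1 activation domain was part of the activator in both groups. Of 83 genes 47 were listed, with 32 higher and 4 lower. Their median was 0.18, against 0.05 with the trend removed, and their median GC content was 44.1%. HSP90AA1, the inducible HSP90, had a mean of 123850.0 in trex5008, 108902 in trex0108, 131457 in trex4039, 119869 in trex8168 and 103491 in control, with control the lowest. HSP90AB1, its constitutive partner, was not called, at 94852 in trex5008 and 89235 in control.

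Of 14 listed J proteins, which stimulate HSP70, 12 were higher. DNAJA1 had a mean of 14910.1 in trex5008 and 11417 in control and a log2 ratio of 0.39 (0.17). DNAJB1, the classical HSP40, stood at 4294 in trex5008 and 3877 in control, a log2 ratio of 0.15 (0.29). HSPH1, an HSP70 exchange factor, was at 0.26 (0.03). Of 10 listed genes of the chaperonin CCT and prefoldin, which fold actin and tubulin, 7 were higher, led by VBP1 at 0.56 (0.32), CCT8 at 0.37 (0.15) and CCT2 at 0.30 (0.11). Of the co-chaperones, CACYBP and CHORDC1 were higher at 0.36 (0.15) and 0.34 (0.09), and STUB1, a ubiquitin ligase of chaperone clients, lower at -0.33 (-0.05).

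HSF1 itself was lower, with a mean of 22960.4 in trex5008 and 32768 in control. RELA, the p65 gene, was lower as well, at 2890.4 in trex5008 and 3540.2 in control. Parts of HSF1 and p65 are carried by the activator plasmid in both groups, and reads from plasmid and chromosome cannot be told apart here.

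The promoters of CHORDC1 and DNAJA1 are shown because both genes rose and hold a heat shock element. It was searched for on both strands as the blocks GAA, TTC and GAA in this order, 2 bases apart, and is marked in capitals. They come from RefSeq (GRCh38.p14), CHORDC1 at chr11:90223000-90223299 on the minus strand and DNAJA1 at chr9:33025023-33025322 on the plus strand.
CHORDC1: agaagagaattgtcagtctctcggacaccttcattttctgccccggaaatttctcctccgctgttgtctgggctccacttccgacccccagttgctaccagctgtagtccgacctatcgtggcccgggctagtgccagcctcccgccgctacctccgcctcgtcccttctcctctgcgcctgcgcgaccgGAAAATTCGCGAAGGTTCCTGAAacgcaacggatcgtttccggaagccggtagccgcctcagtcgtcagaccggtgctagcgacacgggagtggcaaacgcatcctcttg
DNAJA1: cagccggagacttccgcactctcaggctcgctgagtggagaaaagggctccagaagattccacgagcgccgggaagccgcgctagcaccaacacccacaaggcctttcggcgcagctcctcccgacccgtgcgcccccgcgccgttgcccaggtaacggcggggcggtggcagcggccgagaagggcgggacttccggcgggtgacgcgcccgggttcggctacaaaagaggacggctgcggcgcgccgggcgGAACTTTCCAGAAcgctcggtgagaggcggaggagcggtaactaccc
The CHORDC1 window held 3 overlapping matches and the DNAJA1 window 1, which lies just past the start. Of 38 listed members with a promoter in the table, 6 held the element (HSP90AA1, HSP90AB1, DNAJA1, DNAJB6, HSPD1 and CHORDC1), and 5 of these were called higher. The share over all promoters was 0.49%, counted per promoter, whereas a listed member was counted if any of its promoters held the element. A match describes the letters only.

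Splicing genes had 17 higher and 3 lower of 36 listed, out of 84, with medians of 0.16 and 0.03. SRSF10, an SR protein linked to the heat shock response, had a mean of 7051 in trex5008 and 5584 in control, and the U6-associated LSM5 and LSM6 stood at 0.37 (0.13) and 0.32 (0.12). CLK1, a kinase of SR proteins, was lower at -0.20 (-0.43). The row named SRRM2 was lower, at 44.4 in trex5008 and 69.1 in control, but covers 26.3% of the annotated gene and so describes a fragment. The row just before it, XLOC_022597 (chromosome 16, 2802032 to 2827059), has no gene symbol. It was also called lower, with means of 45605 in trex5008 and 56791 in control.

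Genes of the exon junction, mRNA export and RNA surveillance had 10 higher and 2 lower of 16 listed, out of 40, with medians of 0.26 and 0.11. The THO complex genes THOC1 and THOC7, which load export factors onto nascent mRNA, stood at 0.47 (0.23) and 0.42 (0.20), with THOC1 at 2347 in trex5008 and 1696 in control. UPF2 and UPF3B, of nonsense-mediated decay, were higher at 0.32 (0.11) and 0.25 (0.05), and the helicase UPF1 lower at -0.24 (0.00). The exosome nuclease gene DIS3 was higher, with means of 10825 in trex5008 and 8695 in control.

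Replication and cell cycle genes had 35 higher and 11 lower of 70 listed, out of 119, with medians of 0.15 and 0.02. Of the origin recognition complex, ORC2, ORC3, ORC4, ORC5 and ORC6 were all higher, from 0.19 to 0.39, and from 0.01 to 0.15 with the trend removed. The helicase gene MCM6 was higher and MCM2 lower, at 0.15 (-0.05) and -0.17 (0.02). RB1, the retinoblastoma tumour suppressor, had a mean of 3179 in trex5008, 2369 in trex0108, 3689 in trex4039, 2791 in trex8168 and 2269 in control and a log2 ratio of 0.49 (0.25). CDK7, of the CDK-activating complex, and TTK, the spindle checkpoint kinase, stood at 0.41 (0.20) and 0.43 (0.20). The D cyclins CCND1 and CCND3 were lower, at -0.28 (-0.09) and -0.23 (0.01), as was E2F8, an atypical repressor, at -0.22 (-0.38).

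Ubiquitin enzymes and proteasome subunits had 20 higher and 3 lower of 37 listed, out of 76, with medians of 0.18 and 0.04. UBE2B and UBE2V2, of DNA damage tolerance, stood at 0.39 (0.17) and 0.38 (0.13), and the proteasome subunit PSMA4 at 15935 in trex5008 and 12409.5 in control. Cytosolic ribosomal protein genes had 9 higher and 0 lower of 26 listed, out of 84, with medians of 0.19 and 0.14. The share called higher, 34.6%, was near the 32.1% over all protein-coding symbols, and the share called lower was 0%, against 24.2%. RPL7 had means of 27820.0 in trex5008 and 21395 in control, 0.38 (0.18), and RPS14 31624 in trex5008 and 26919.6 in control, 0.23 (0.31). RPS27L and RPL22L1, paralogs of ribosomal proteins, were higher at 0.41 (0.20) and 0.40 (0.17). Reads of ribosomal protein genes can be shared with their many pseudogenes.

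For mitochondrial ribosomal genes the counts were 17 higher and 3 lower of 37 listed, out of 78, with a median of 0.10. Over the 36 with a GC content the median was 0.13, and 0.10 with the trend removed. MRPL1 stood at 0.46 (0.22) and MRPL40 at 0.30 (0.53). Nuclear-encoded genes of the respiratory chain had 11 higher and 2 lower of 27 listed, out of 77, with medians of 0.13 and 0.06. UQCRB, of complex III, was higher with means of 8161 in trex5008 and 6116 in control, and NDUFB7, of complex I, lower at -0.25 (0.05).

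**Figure D4:**
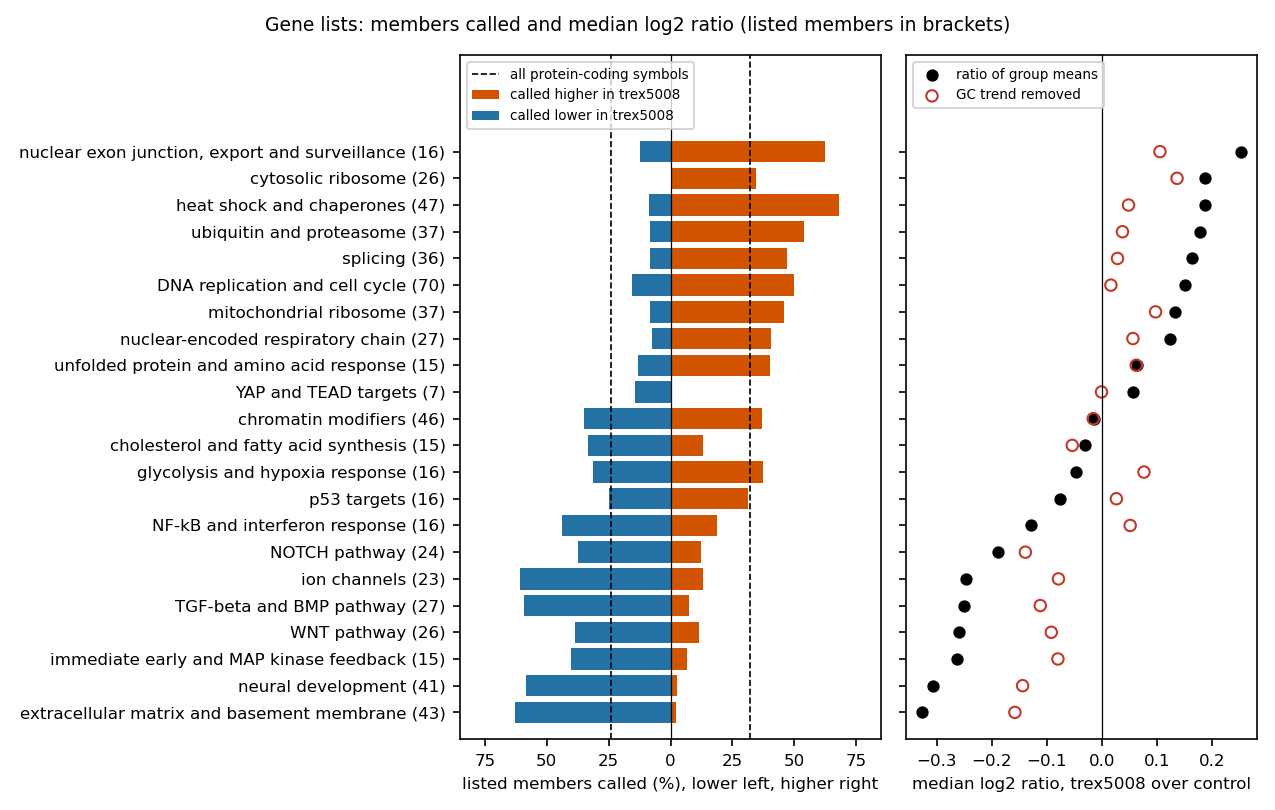
Left, the share of listed members called higher (orange) or lower (blue) in trex5008, for 22 gene lists with the number of listed members in brackets; dashed lines show 32.1% and 24.2% over all protein-coding symbols. Right, the median log2 ratio of group means (black) and the same with the GC trend removed (red circles), both over the members with a GC content; the red circle lies nearer to 0 for 19 of 22 lists. Extracellular matrix genes are lowest, at -0.33 and -0.16.

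Other groups had calls in both directions. Chromatin modifiers had 17 higher and 16 lower of 46 listed, out of 111, with a median of -0.02. Within polycomb, the core subunits of the H3K27 methyltransferase complex EZH2, EED and SUZ12 and the ubiquitin ligase RNF2 were higher, from 0.15 to 0.20, whereas the chromobox genes CBX2, CBX6 and CBX8 and PCGF2 were lower, from -0.36 to -0.23. With the trend removed both sets lay between -0.09, for CBX2, and 0.07, for CBX8, apart from PCGF2 at -0.12. The H3K79 methyltransferase gene DOT1L stood at -0.48 (-0.20), and EP400, of a histone exchange complex, at -0.38 (-0.25).

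Targets of p53 had 5 higher and 4 lower of 16 listed, out of 20. CDKN1A, the p21 gene, was not called, at 627 in trex5008 and 704 in control. ZMAT3, an RNA-binding target, was higher at 0.41 (0.42), and the proapoptotic BBC3 and BAX were lower at -0.45 (-0.15) and -0.30 (-0.04). In the NF-kB and interferon group 3 were higher and 7 lower of 16 listed, out of 41; IFIT3 stood at 0.41 (0.22), and the ubiquitin-like ISG15 at -0.41 (-0.12). For cholesterol and fatty acid synthesis, 2 were higher and 5 lower of 15 listed, out of 34. SREBF1, the SREBP1 gene that drives lipogenic genes, had a mean of 932 in trex5008 and 1565 in control, -0.75 (-0.46).

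Immediate early and MAP kinase feedback genes had 1 higher and 6 lower of 15 listed, out of 34, with medians of -0.26 and -0.08. The rise was that of EGR1, while MYC, JUN, FOSB and KLF6 were lower, at -0.47 (-0.25), -0.29 (-0.12), -0.27 (-0.08) and -0.26 (-0.43), as was the phosphatase gene DUSP7 at -0.43 (-0.20). In the glycolysis and hypoxia group 6 were higher and 5 lower of 16 listed, out of 40. The shares were 37.5% and 31.2%, against 32.1% and 24.2% over all protein-coding symbols. PKLR and ANKRD37 led the rises; the demethylase gene KDM3A and the oxygen sensor EGLN1 were higher at 0.28 (0.11) and 0.25 (0.06); PFKL and PFKP, of phosphofructokinase, were lower at -0.35 (-0.03) and -0.34 (-0.14), and DDIT4 fell most. For the unfolded protein and amino acid response the counts were 6 higher and 2 lower of 15 listed, out of 29, with the amino acid exchanger subunits SLC3A2 higher at 0.17 (0.37) and SLC7A5 lower at -0.36 (-0.11). Of 7 listed YAP and TEAD genes, out of 15, TEAD3 was lower at -0.20 (0.05) and 0 were higher; CYR61 and CTGF were at 0.13 (0.07) and -0.11 (-0.12).

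Zinc finger genes had 55 higher and 25 lower of 150 listed rows, with a median of 0.16, or -0.02 with the trend removed. Their shares were 36.7% and 16.7%, against 32.1% and 24.2% over all protein-coding symbols. Solute carriers had 28 higher and 47 lower of 122 (23.0% and 38.5%). RAB GTPases, which direct vesicle traffic, had 13 higher and 1 lower of 26, with medians of 0.16 and 0.04, and centrosomal CEP genes 9 and 2 of 16, with 0.21 and -0.01. Tubulins had 2 higher and 6 lower of 12, and kinesins 7 and 6 of 21. The kinesin shares, 33.3% and 28.6%, were near those over all protein-coding symbols.

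In absolute counts the largest gains were those of HSP90AA1, RPS4X, NPM1 and 2 rows with only a locus identifier. A row with only an identifier may still cover a known gene, and none was matched to genes by position here. NPM1, the nucleolar protein nucleophosmin, had a mean of 74528 in trex5008 and 62576 in control, and the row may take in neighbouring transcripts, since it spans several times the gene. The unnamed locus XLOC_047504 (chromosome 4, 152020487 to 152045409, hg19) stood at 56325 in trex5008 and 40698 in control, and XLOC_012483 (chromosome 11, 122928157 to 122934174) at 71310.4 in trex5008 and 57834 in control. The 5 largest losses were all rows with only a locus identifier, led by XLOC_031135 (chromosome 19, 3773737 to 3990329) at 107270.0 in trex5008 and 121625 in control. The row with the largest fall in log2 ratio among them was XLOC_028079 (chromosome 17, 80032975 to 80171411), at 18914 in trex5008 and 29633 in control.

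Some rows set trex5008 apart from every other group. Besides RP11-71N10.1, KLKP1 and ANKRD18B, the antisense RNAs RP5-821D11.7 and AC010761.13 had trex5008 means above all the others, at 98.7 in trex5008, 46.4 in trex0108, 72.4 in trex4039, 66.5 in trex8168 and 59 in control, and at 166 in trex5008, 128 in trex0108, 108 in trex4039, 128 in trex8168 and 118 in control. Below all other groups lay SSC5D, the metabotropic glutamate receptor gene GRM4, the interleukin 2 receptor chain IL2RB, the sodium channel subunit SCNN1A and the TGF-beta binding protein gene VASN. GRM4 had a mean of 70.7 in trex5008, 136 in trex0108, 122 in trex4039, 139 in trex8168 and 106 in control, where the other target groups lay above control. SCNN1A stood at 43.9 in trex5008, 60.1 in trex0108, 63.4 in trex4039, 255 in trex8168 and 68.3 in control, and its trex8168 mean was the highest by far. VASN had 259.6 in trex5008, 448 in trex0108, 359.6 in trex4039, 356 in trex8168 and 349 in control. These rows were ranked by this separation, so it is a description.

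**Figure D5:**
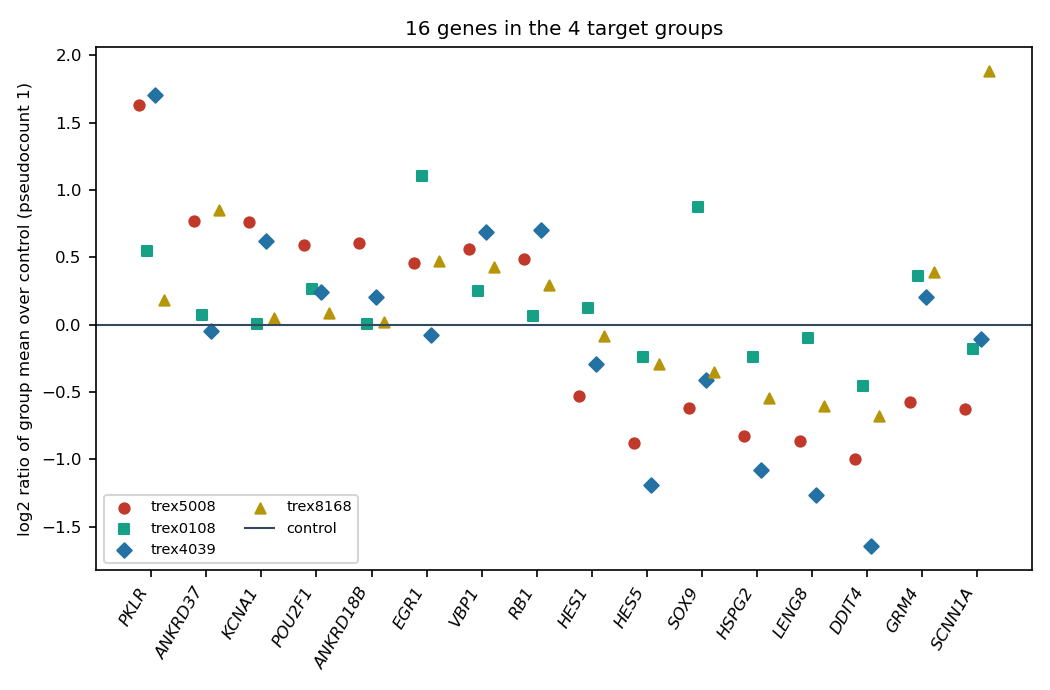
Log2 ratio of the group mean over control (vertical axis) for 16 genes in trex5008 (red circles), trex0108 (green squares), trex4039 (blue diamonds) and trex8168 (yellow triangles); the line at 0 is the shared control. PKLR is high in trex5008 and trex4039, DDIT4 is below control in the 4 target groups, and GRM4 and SCNN1A are lowest in trex5008.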

How the data were processed

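Normalised count means per group (signal columns), log2 fold changes, adjusted p-values and call columns (score) were used as the authors deposited them. Tools named in the submitters' processing notes, without role or order, are DESeq2 1.14.1, DESeq, Cufflinks, STAR 2.5.1b, Bowtie2 2.2.1 and bedtools, with the build hg19. The deposited signal columns hold the authors' mean over the 3 libraries of a group. The deposited log2 fold changes are shrunken. The deposited adjusted p-value was taken as given, and the deposited call score marks an adjusted p under 0.1. A count test had been planned only for counts per library, which were not analysed here, so no SD, depth or interval is given.

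Log2 ratios of means with a pseudocount of 1, counts and medians were computed in Python 3.11.15 with pandas 2.3.3 and statsmodels 0.14.6. GC content came from GENCODE 29 transcripts, joined by symbol, and its trend was removed by lowess (fraction 0.3, 3 iterations), an alternative chosen after seeing the data. The trend removal was tested on simulated data. Gene lists took the row with the highest mean per symbol. Of all rows, 3862 carry an identifier in place of a gene symbol, and a gene inside such a row is missing from the list counts. Some rows span many times the annotated gene, among them those named KLF6, RPL7, UQCRB, CBX2 and RELA, and may take in other transcripts. The same holds to a lesser degree for the rows named ANKRD37, KCNA1 and DDIT4, which cover 200.8%, 256.9% and 519.7% of the annotated gene. Their GC content is that of the named gene alone. Members and lists were chosen with earlier results of these data known.

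Named genes are the strongest risen row that is not protein-coding with its neighbours, and the 12 largest rises and falls of protein-coding rows and 5 of other rows, with a mean of at least 50. They also include the 5 largest gains and losses in mean, up to 4 called members per direction and list role, and the 5 rows furthest above and below all other groups. Other genes named, such as those not called or running against the GC trend, were chosen after their values were seen. Some genes that meet these rules are not reported here.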

Additional observations from a re-analysis of the deposited data

How the results depend on the processing

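Counts over all listed rows kept within 1.5 times at adjusted p thresholds of 0.01 and 0.1, at a mean of at least 50, over protein-coding rows alone and after centring. For the gene lists, 16 of 46 counts of members moved by more than 1.5 times at an adjusted p under 0.01, among them cytosolic ribosomal genes with 4 higher, respiratory chain genes with 7 higher and chromatin modifiers with 10 higher; YAP and TEAD genes then had 0 lower and neural development 0 higher. Asking for a log2 ratio of at least 0.5 in size left 94 rows higher and 428 lower. Asking for at least 0.5 of the size without the GC trend left 223 higher and 294 lower, by construction over protein-coding rows with a mean of at least 50.

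Under other pseudocounts (0.1 and 10), the deposited log2 fold change and centring, 0 of 206 results for single rows changed sign. Without the GC trend 27 of 185 did, 20 of them called rows and 7 not called; the part of GC content was not tested. Among the called rows, SUZ12 and EZH2 then stood at -0.03, ITGB1 at -0.03, EED and RNF2 at -0.08, FZD3 at -0.04, MIB1 at -0.02 and MCM6 at -0.05. On the other side TEAD3 and NDUFB7 stood at 0.05, RFNG, BMP7, CCND3 and NTN1 at 0.01, CBX6 at 0.04, CBX8 at 0.07, MCM2 at 0.02, UPF1 at 0.00, NRARP at 0.11 and the longer SLC1A5 row at 0.03. The rows not called were DLL4 at 0.20, HEYL at 0.07, NES at 0.04, CDKN1A at 0.03, CTNNB1 at -0.09, PLSCR1 at -0.08 and HSP90AB1 at -0.05. Of 23 list medians 14 moved by at least 0.1 or changed sign, including glycolysis and hypoxia to 0.08 and NF-kB and interferon to 0.05, both negative before.

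No paired analysis was possible because the table holds no values per library and the titles give groups no shared replicate numbers. For the same reason leaving out libraries, edgeR and DESeq2 were not run, and GC removal over all rows was not run, since 54.4% of rows had a GC content. Depth is unknown, and rows without an adjusted p had means of at most 23.8.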
